A study of Mus musculus with 5 samples.

Results

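GATA factors are transcription factors that bind DNA words built around the letters GATA through zinc fingers. The members described here are Gata2, Gata3, Gata4, Gata5 and Gata6, chosen by family name and found by symbol: all 5 are among the 19699 gene entries of the expression table. RNA was sequenced from the main airway piece, with trachea and lung, of C57 mouse embryos at E13.5, in mid gestation. The 2 mutant libraries came from embryos in which Prmt5, an arginine methyltransferase, was removed from lung epithelial cells. Their genotype label reads Prmt5 knockdown, and the design text names Shh beside Prmt5 in the mutant genotype. The 3 control libraries are labelled WT and described as littermates. The sources used here do not give the Cre driver, and the number of embryos in a library is not stated, so part of the spread that p-values measure may be technical.

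The family falls into a pair of groups by sequence and by use. Gata2 and Gata3 are known from blood, endothelium, sympathetic neurons and organs of the pharynx, and Gata4, Gata5 and Gata6 from heart, gut and other tissues of endoderm and mesoderm. In the lung, Gata6 acts in the epithelium, where it is needed for the maturation of distal cells, and is also expressed in mesenchyme. Gata4 and Gata5 are known in the heart, in the linings of body cavities and in mesenchyme of the embryo.

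Gata5 was the member whose call passed, and the sequence before its start is shown because its antisense neighbour Gata5os runs through it. The letters are from RefSeq (GRCm38.p6), chr2:180334700-180334929 on the minus strand, written 5′ to 3′ and ending at the base before the exon annotated in GENCODE M21. Capitals mark the word GGGCGG, the GC box, searched on both strands.

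Gata5 upstream: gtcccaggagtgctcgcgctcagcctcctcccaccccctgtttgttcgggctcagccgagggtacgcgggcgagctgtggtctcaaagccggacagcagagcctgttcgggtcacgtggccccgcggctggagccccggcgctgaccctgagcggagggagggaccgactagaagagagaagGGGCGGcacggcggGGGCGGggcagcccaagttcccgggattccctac

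The stretch of 230 bases holds 2 GC boxes, a word present in 35.7% of 32851 RefSeq windows of 300 bases around gene starts. The common GATA factor words are AGATAA, then the word AGATAG, the word TGATAA and the word TGATAG, and on neither strand does the stretch hold any of them. Such a word is in 29.8% of the windows. The windows of 3 members were in the RefSeq table. Gata3 has 1 such word, TGATAG, 36 bases after the start site that its window is built on, and both windows of Gata2 have none. All 230 bases lie inside Gata5os, in an intron of it.

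The libraries held 15652503 to 18682463 reads, recovered from the steps between the deposited values (FPKM: fragments per kilobase of gene, scaled to the reads of the library). Lung identity was present in every library, with the lung factor Nkx2-1 at 20.4 to 43.1 FPKM and the mesenchyme factor Tcf21 at 49.0 to 104 FPKM. Prmt5 measured 23.7 and 20.1 FPKM in mutants, against 28.7, 26.4 and 25.8 FPKM in controls (limma, adjusted p = 0.234), in tissue whose mesenchyme was not a target of the deletion. Sex make-up differed with genotype. RNA of 4 Y-linked genes, relative to the highest library, was at 1 and 0.86 in the mutants. It was at 0.73, 0.598 and 0.142 in controls 1, 2 and 3. Xist, which female cells express, was at 0.0673 and 0.289 FPKM in the mutants. Controls 1, 2 and 3 had 57.3, 58.1 and 115 FPKM (log2 change -5.98, limma adjusted p = 0.000667). Every control thus held both Xist and Y-linked RNA, while the mutants held almost no Xist. Effects of sex and of genotype therefore cannot be fully told apart in these libraries. In whole tissue, fewer cells of a type and less RNA per cell cannot be told apart.

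Gata5 rose in the mutants, and the other members did not pass the test. Of the 5 members, 1 passed limma's test at an adjusted p of 0.05, and it was higher. Among all 12838 genes tested, 2.36% passed, 0.989% as higher and 1.37% as lower. An unadjusted p under 0.05 was reached by 6.53% as higher and 12.3% as lower, the background for such counts below. The background for voom counts below is 603 of the 12838 genes called, 243 as higher and 360 as lower. Both mutants lay above all 3 controls for Gata5 and Gata6 (2 of 5 members, against 13.2% of all genes) and below them for Gata3 (1 of 5, against 24.4%). The groups did not overlap for 37.6% of all genes, and they overlapped for Gata2 and Gata4. Gata3 was kept by the filter on low values only through its controls, so its place among the members tested depends on the group where it is high.

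**Figure D1:**
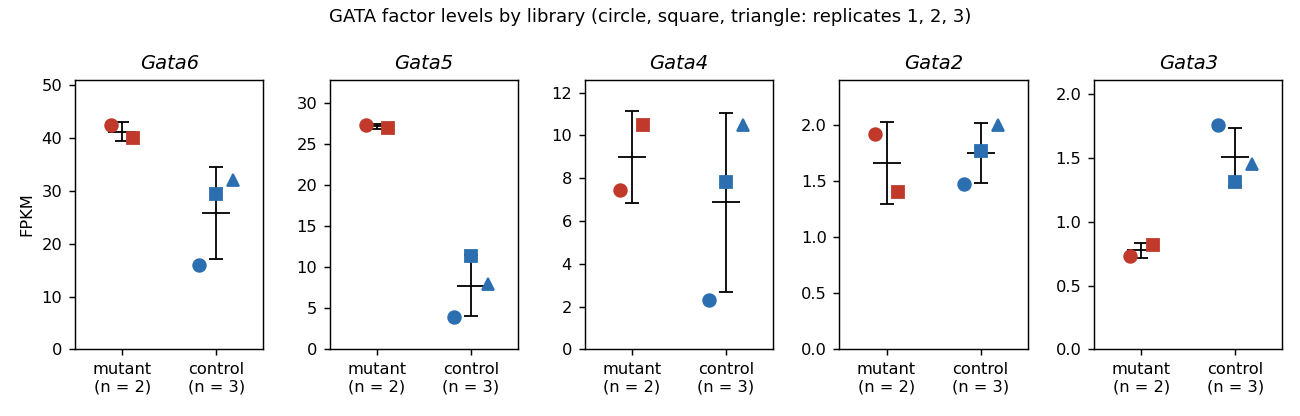
FPKM of each GATA gene in the 2 mutant (red) and 3 control (blue) libraries, with horizontal bars for the mean and whiskers for 1 SD, each panel with its own axis from 0. The mutants lie above all controls for Gata6 and Gata5 and below them for Gata3, and control replicate 1 is the lowest library for Gata6, Gata5 and Gata4.

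In level per length, Gata6 led in every library and Gata2 and Gata3 were the lowest. In the controls the order was Gata6 at 25.8 ± 8.65, Gata5 at 7.78 ± 3.76, Gata4 at 6.88 ± 4.20, Gata2 at 1.75 ± 0.269 and Gata3 at 1.51 ± 0.232 FPKM (SD, n = 3). There Gata5 and Gata4 overlapped, as did Gata2 and Gata3. Gata4 was above Gata5 in control 3 and below it in controls 1 and 2. In the mutants the order was the same and no neighbours overlapped, with Gata6 at 41.2 ± 1.82 and Gata5 at 27.2 ± 0.257 FPKM (SD, n = 2). The others were Gata4 at 8.97 ± 2.15, Gata2 at 1.66 ± 0.368 and Gata3 at 0.776 ± 0.0602 FPKM. Gata5 thus made up 34.3% and 33.9% of the summed FPKM of the 5 members in the mutants, and 15.5%, 22.2% and 14.8% in the controls.

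Gata5 (chromosome 2, 180325133 to 180334699, minus strand, GRCm38) encodes a factor known from the heart and its lining in the embryo. It gave 1415 and 1387 reads in mutants 1 and 2, or 27.4 and 27.0 FPKM. Controls 1, 2 and 3 gave 240, 611 and 477 reads, or 3.92, 11.4 and 7.99 FPKM. The mutants were close to each other and far above the highest control, while the controls differed among themselves by more than the mutants did. The mutant mean was 3.50-fold the control mean, with a log2 change of 1.78 (SE 0.34, 95% interval 0.99 to 2.58, limma adjusted p = 0.0452). A two-sided exact permutation test gave p = 0.1, the lowest reachable with 10 splits of 5 libraries.

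The call of Gata5 lies near the threshold. It was lost without mutant replicate 1, mutant replicate 2 or control replicate 3 (adjusted p = 0.209, 0.321 and 0.0607) and in 9 settings that kept all libraries, while the direction held in all 18 settings run. With Epcam, a gene of all epithelia, as a covariate, an alternative chosen after the data were seen, the log2 change was 1.00 (adjusted p = 0.273).

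Gata5os, the antisense gene (chromosome 2, 180332857 to 180340732, plus strand), was also higher in the mutants, at 1.13 and 0.952 FPKM against 0.223, 0.548 and 0.621 FPKM. These values rest on 30 and 25 reads against 7, 15 and 19, and the gene was below the filter, so it was not tested. The genes share 258 exon bases, 15.4% of the exon bases of Gata5os and 7.9% of those of Gata5. Whether the counting used strand is not given in the sources used here. Reads on those shared bases thus cannot be assigned to 1 of the genes.

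Gata6 (chromosome 18, 11052064 to 11085635, plus strand), the lung member of the family, gave 2138 and 1995 reads in mutants 1 and 2, or 42.5 and 39.9 FPKM. Controls 1, 2 and 3 gave 950, 1524 and 1870 reads, or 15.9, 29.3 and 32.1 FPKM. Control 1 stood well below the other controls, and both mutants lay above the highest control. The mutant mean was 1.60-fold the control mean, but the log2 change of 0.71 did not pass (SE 0.27, 95% interval 0.09 to 1.34, limma adjusted p = 0.209). The exact permutation test gave p = 0.2, since the split that sets controls 1 and 2 against the rest differs by more than the groups do. Without control 1 the log2 change was 0.41 (adjusted p = 0.13), and with Epcam as a covariate it was -0.03 (adjusted p = 0.952).

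Gata4 (chromosome 14, 63198922 to 63271692, minus strand), a factor of heart, gonad and body cavity linings, gave 458 and 641 reads in mutants 1 and 2, or 7.45 and 10.5 FPKM. Controls 1, 2 and 3 gave 167, 498 and 749 reads, or 2.29, 7.82 and 10.5 FPKM. The groups overlapped, and control 1 alone was low. The log2 change of 0.50 did not pass (SE 0.48, 95% interval -0.61 to 1.62, limma adjusted p = 0.636). Without control 1 it was -0.03 (adjusted p = 0.949), with the share of Y-linked RNA as a covariate 1.62 (adjusted p = 0.161), and with Epcam as a covariate -0.84 (adjusted p = 0.258).

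Within a library, the ratio of one member to another does not depend on scaling. Gata5 over Gata6 was 0.645 and 0.678 in the mutants and 0.246, 0.391 and 0.249 in the controls, so Gata5 was higher in the mutants relative to Gata6 as well. Gata5 over Gata4 was 3.68 and 2.58 in the mutants and 1.71, 1.46 and 0.759 in the controls. Neither ratio's groups overlapped. Gata4 over Gata6 was 0.175 and 0.263 against 0.144, 0.267 and 0.328, with groups that overlapped. Exact permutation tests of the 3 log ratios, two-sided, gave p = 0.1, 0.1 and 0.8 in that order (0.15, 0.15 and 0.8 adjusted over the 3), where 0.1 is the smallest possible.

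Gata3 (chromosome 2, 9857078 to 9890034, minus strand), a factor of sympathetic neurons, thymus and parathyroid, gave 46 and 51 reads in mutants 1 and 2, or 0.734 and 0.819 FPKM. Controls 1, 2 and 3 gave 131, 85 and 105 reads, or 1.76, 1.31 and 1.45 FPKM. Both mutants lay below the lowest control, and the mutant mean was 0.515 of the control mean. The log2 change of -0.49 did not pass (SE 0.17, 95% interval -0.90 to -0.08, limma adjusted p = 0.187), and the exact permutation test gave p = 0.1. The change stayed below 0 in all 17 settings that gave a value, between -0.95 with voom on recovered reads and -0.34 with quantile normalization or with Epcam as a covariate, at adjusted p of 0.101 to 0.622.

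Gata2 (chromosome 6, 88193891 to 88207032, plus strand), a factor of endothelium and blood progenitors, gave 163 and 118 reads in mutants 1 and 2, or 1.92 and 1.40 FPKM. Controls 1, 2 and 3 gave 148, 156 and 197 reads, or 1.47, 1.77 and 2.00 FPKM. The groups overlapped. The log2 change was -0.05 (SE 0.18, limma adjusted p = 0.918), with a 95% interval of -0.46 to 0.36. With Epcam as a covariate it was -0.26 (adjusted p = 0.699).

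**Figure D2:**
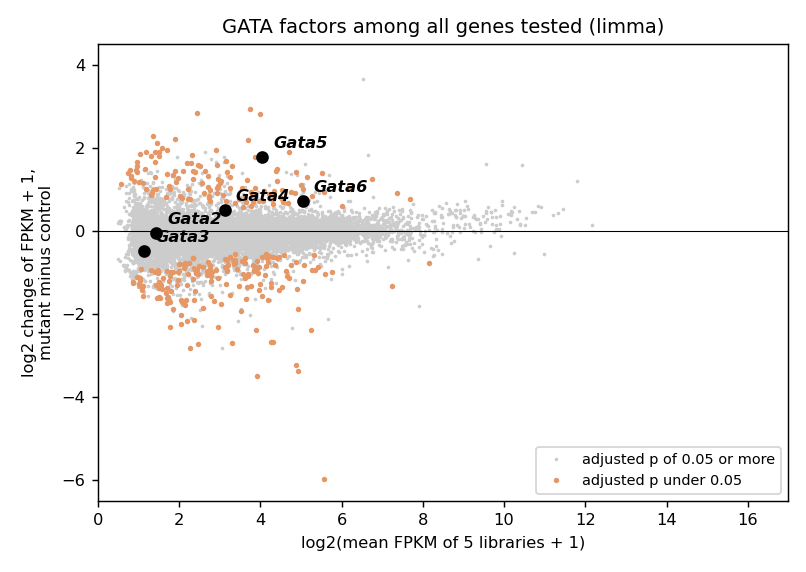
Log2 change of FPKM + 1 (mutant minus control) against log2 of the mean FPKM + 1 of the 5 libraries for the 12838 genes tested, with the GATA genes as black points and genes past an adjusted p of 0.05 in orange. Gata5 lies among the called genes at 1.78, while Gata6 and Gata4 at 0.71 and 0.50 and Gata2 and Gata3 at -0.05 and -0.49 do not pass.

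GATA factors act with cofactors, and no cofactor gene passed the test. Of 12 tested, 0 passed with limma, 2 had an unadjusted p under 0.05 (1 higher, 1 lower) and voom on recovered reads called 1, lower. The list had a median log2 change of 0.03, beside -0.06 over all genes tested. The cofactors with the highest FPKM were Ldb1 and Lmo4, members of the LIM domain complexes, and Tcf3, an E protein, with log2 changes of 0.10, -0.49 and -0.01 and adjusted p-values of 0.796, 0.0628 and 0.989. Zfpm2, the friend of GATA protein that works with Gata4, measured 8.64 and 8.43 FPKM in mutants, against 4.01, 5.57 and 7.23 FPKM in controls. Both mutants lay above all controls, but its log2 change of 0.56 did not pass (adjusted p = 0.193). Zfpm1, its blood counterpart, was at 10.0 and 8.37 FPKM against 5.56, 8.61 and 11.2 FPKM, with overlapping groups (log2 change 0.15, adjusted p = 0.808). Zfpm1 and Zfpm2 fall outside the rule for named genes and were chosen after their values were seen.

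Of the lung epithelial genes that are linked to Gata6, 1 rose. That was 1 of 9 tested, and the median log2 change was 0.71, beside -0.06 over all genes. It was Sftpa1, a surfactant protein gene, with 3.22 and 3.62 FPKM in mutants against 0.468, 0.836 and 0.0192 FPKM in controls (log2 change 1.66, adjusted p = 0.029). Sftpa1 and Aqp5, a water channel gene, reached the filter of 1 FPKM in the mutants only, so they were tested through the group where they are high. The median counts both, so neither it nor the call of Sftpa1 can be read apart from the filter. The unadjusted p was under 0.05 for 4 higher genes, Sftpa1 and Aqp5 among them, and 1 lower gene. The lower gene was Foxa2 (log2 change -0.92, adjusted p = 0.0833). Nkx2-1 and Wnt7b, a Wnt ligand of the epithelium, were at log2 changes of 0.06 and -0.15 and adjusted p-values of 0.938 and 0.826.

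The levels of epithelial genes ran against those of Gata4, Gata5 and Gata6 in control 1. The summed FPKM of 12 pan-epithelial markers was 674 in control 1, 347 and 264 in controls 2 and 3, and 269 and 274 in the mutants. Control 1 was thus the richest in epithelial RNA and the lowest in each of these 3 GATA genes. Epcam itself was at 124, 66.5 and 51.4 FPKM in controls 1, 2 and 3 and at 38.2 and 40.1 FPKM in the mutants (log2 change -0.92, adjusted p = 0.181). Of the 12 markers 0 passed with limma, 5 had an unadjusted p under 0.05 (1 higher, 4 lower) and voom called 1 higher and 1 lower. Cldn6 and Krt8, a claudin and a keratin gene, were at log2 changes of -0.15 and -1.03 and adjusted p-values of 0.874 and 0.284. For 7 of the 12, Epcam and Krt8 among them, both mutants lay below all controls, while Cldn6 was at 44.0 FPKM in control 3 and 65.7 and 68.7 FPKM in the mutants. The part of epithelial RNA in the GATA values was not tested by these sums, and the changes with Epcam as a covariate stand beside each member above.

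Markers of the mesothelium, the lining of the lung surface, were higher in the mutants in sign but did not pass. Their summed FPKM was 236 and 310 in the mutants and 145, 168 and 136 in the controls, so the groups did not overlap. Of 11 tested, 9 were higher in sign, and for 8 both mutants lay above all controls. With limma 0 passed, 6 higher genes had an unadjusted p under 0.05 and voom called 3, all higher. The median log2 change was 0.97, counting Msln, which reached the filter in controls only. Aldh1a2, a retinoic acid synthesis enzyme, was at 64.3 and 93.3 FPKM against 17.3, 44.0 and 35.5 FPKM (log2 change 1.34, adjusted p = 0.106). Upk3b, a uroplakin of the mesothelium, was at 43.2 and 63.2 FPKM against 6.19, 33.4 and 20.6 FPKM (log2 change 1.61, adjusted p = 0.191). Krt19, a keratin that epithelium shares, was at a log2 change of 0.07 (adjusted p = 0.967). For Aldh1a2 and Upk3b control 1 was the lowest library, as for Gata4, Gata5 and Gata6, and the part of mesothelium in the GATA values was not tested.

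Lung mesenchyme genes were higher for 3 of 12 tested, with a median log2 change of 0.30. The 3 were Fgf10, a signal of branching, and the mesenchymal factor and ligand genes Tbx4 and Wnt2, at log2 changes of 1.79, 1.02 and 1.45 and adjusted p-values of 0.00641, 0.0343 and 0.0485. For 6 of the 12 both mutants lay above all controls. The summed FPKM of the list did not separate the groups, at 1360 and 1130 in the mutants and 1200, 1300 and 1530 in the controls. Col1a1, a collagen gene at 610 to 1050 FPKM, makes up most of this sum.

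Markers of heart muscle, a known site of Gata4, Gata5 and Gata6, were at unequal levels in the libraries. Its 15 markers summed to 229 and 539 FPKM in the mutants and to 506, 406 and 1470 FPKM in the controls. By this sum, which Myl7 and Actc1 lead, control 3 was the highest library, and the groups overlapped. The part of heart RNA in the GATA values was not tested. Of 11 tested, 0 passed with limma, 4 had an unadjusted p under 0.05 (1 higher, 3 lower) and voom called 2, lower. The higher gene was Tbx5, which is also in the lung mesenchyme list. Myh7, 1 of the 3 lower, reached the filter in controls only, so it was tested through the group where it is high. Myl7, Actc1 and Myl4, sarcomere genes, were at log2 changes of -0.51, -1.81 and -0.58 and adjusted p-values of 0.756, 0.112 and 0.698. For Actc1 both mutants lay below all controls, while the groups overlapped for Myl7 and Myl4. The part of skeletal muscle in these sarcomere values was not tested.

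**Figure D3:**
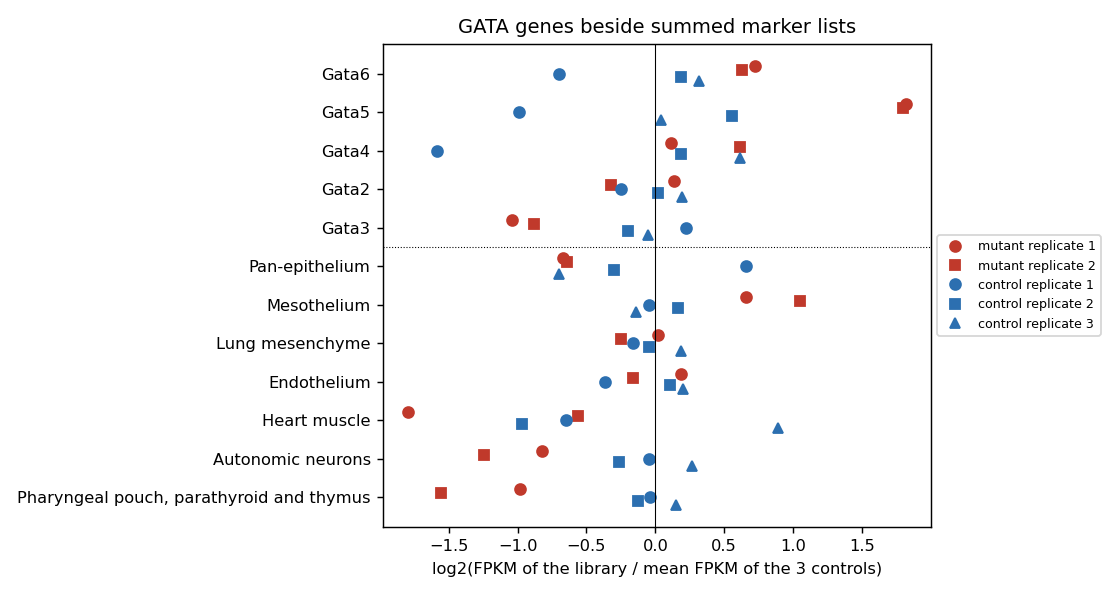
Log2 ratio of each library's FPKM to the mean of the 3 controls for the GATA genes (above the dotted line) and for the summed FPKM of 7 marker lists (below it), with mutants in red and controls in blue. Control replicate 1 is lowest for Gata6, Gata5 and Gata4 and highest for pan-epithelial markers, while the mutants are above all controls for mesothelium and below them for autonomic neurons and the pharyngeal list, as for Gata3.

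Some markers of cell types that are known to use Gata3 fell in the mutants. Of 12 genes of autonomic neurons 3 fell, with a median log2 change of -0.76 and a summed FPKM of 44.9 and 33.5 in the mutants against 76.8, 66.1 and 95.2 in the controls. Among them, Dbh, the enzyme that makes noradrenaline, fell by 1.09 and Ret, a receptor of neural crest cells, fell by 1.00 in log2, with adjusted p-values of 0.0433 and 0.0254. For 11 of the 12 both mutants lay below all controls, and 3 of the 12, none of them among those that fell, reached the filter in controls only.

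Of the list for pharyngeal pouch, parathyroid and thymus, 10 of 12 genes are in the table and 6 were tested. Of these 2 fell, among them Tbx1, a transcription factor of the pharynx, by 1.93 in log2 (adjusted p = 0.0169), and the median was -0.90. For 1 of the 2, not Tbx1, only controls reached the filter. The list summed to at most 20.0 FPKM in the mutants and to 36.3 FPKM or more in the controls. Foxn1, which defines thymic epithelium, stood at 0 in 4 of 5 libraries and at 0.0342 FPKM in control 3. Tbx1 is also a gene of muscle precursors. Skeletal muscle genes fell for 8 of 10 tested, with a median of -2.10: Myod1, Myog, Myh3, Myh8, Acta1, Mylpf, Tnnt3 and Chrna1, at log2 changes of -3.49 to -1.43. Myh8 and Chrna1 were under 1 FPKM in both mutants, so 2 of these 8 were tested only through the controls, where they are high.

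Of 10 genes of secretory and basal airway epithelium, 5 fell and the median was -1.32. They were Sox2, Aldh1a7, Muc1, Foxa1 and Ngfr, at log2 changes of -2.68, -2.39, -1.66, -1.43 and -0.70 and adjusted p-values of 0.0163, 0.0077, 0.0476, 0.0419 and 0.0313. Muc1, at 0.514 and 0.926 FPKM in the mutants, was tested only through the controls, as was Trp63, at 0.991 and 0.967 FPKM. The basal factor Trp63 and the keratin genes Krt5, Krt15 and Krt17 did not pass. Their log2 changes were -0.71, 0.03, -0.81 and -1.21 (adjusted p = 0.386, 0.963, 0.518 and 0.364). For Trp63, Krt15 and Krt17 control 1 was the highest library. The summed FPKM of the list was 39.5 and 45.3 in the mutants and 291, 127 and 134 in the controls. Gata3 thus lay below all controls together with markers of autonomic neurons, of the pharynx and of the conducting airway, and the part of each in its values was not tested.

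No marker of the cell types that are known to use Gata2 passed the test. Endothelial markers summed to 262 and 206 FPKM in the mutants and to 179, 248 and 264 FPKM in the controls, with overlapping groups as for Gata2. Of 15 tested 0 passed with limma, 2 lower genes had an unadjusted p under 0.05 and voom called 0. The median was -0.02. Cdh5, Cldn5 and Eng, genes of endothelial junctions and signalling, were at log2 changes of -0.02, 0.17 and 0.21 and adjusted p-values of 0.972, 0.787 and 0.603. Of 8 genes of mast cells and blood progenitors 0 passed with limma, 3 had an unadjusted p under 0.05 (2 higher, 1 lower) and voom called 1, higher. The 3 were Cpa3 and Hdc, higher in both mutants than in all controls, and Myb, lower in both. Their log2 changes were 1.18, 0.91 and -0.66 (adjusted p = 0.203, 0.0637 and 0.217). Hdc reached the filter in mutants only and Myb in controls only. Cd34, Kit and Spi1 of that list were at 0.00, 0.34 and 0.13 (adjusted p = 0.995, 0.303 and 0.743). The median of the list was 0.07.

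Remaining lists gave the wider setting. Of 11 erythroid genes 0 passed with limma, 4 had an unadjusted p under 0.05 (2 higher, 2 lower) and voom called 1, higher, with a median of -0.13. The globin genes Hbb-y, Hba-a1 and Hbb-bs, whose sequences are close to those of other globins, were at 0.58, -0.54 and -0.13 (adjusted p = 0.118, 0.396 and 0.87). Of 10 smooth muscle genes Actg2, an actin gene, fell by 1.89 in log2 (adjusted p = 0.0107), and the median was -0.69. An unadjusted p under 0.05 was reached by 1 higher and 7 lower genes, and voom called 3, all lower. For 8 of the 10 both mutants lay below all controls, and for 1 above them. Lmod1, 1 of the 7, reached the filter in controls only. Of 5 genes of liver and gut tested, Barx1, a factor of stomach and tracheal mesenchyme, fell by 1.28 in log2 (adjusted p = 0.00797), and the median was -0.25.

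The genes with profiles nearest to each member were found by the root mean square difference of centred log2(FPKM + 1) over the 5 libraries, as a description. For Gata5 they were Cpz, a carboxypeptidase that binds Wnt ligands, Hoxa6, a homeobox factor, and Wnt2, at differences of 0.0948, 0.191 and 0.20. Cpz measured 14.3 and 12.1 FPKM in mutants, against 1.57, 5.82 and 4.06 FPKM in controls, so control 1 was the lowest and control 2 the highest control, as for Gata5. Cpz and Hoxa6 did not pass (log2 changes 1.66 and 1.73, adjusted p = 0.065 and 0.0517).

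For Gata6 the nearest were Gucy1a3, a subunit of the nitric oxide receptor, Crb2, a polarity gene, and Tm4sf5, at 0.0746, 0.0908 and 0.0945. For Gata4 they were Bnc1, a gene of the mesothelium list, and the small RNA entries Mir3070a and n-R5s188, at 0.225, 0.234 and 0.266, farther than the 3 nearest genes of each other member. Mir3070a rests on 3 to 10 reads a library and n-R5s188 on 0 to 5, so the profiles of both are imprecise. Bnc1 measured 4.29 and 5.01 FPKM in mutants, against 0.714, 2.93 and 3.57 FPKM in controls. For Gata3 the nearest were Malt1, Ddc, which makes dopamine and serotonin, and Fam169a, at 0.0212, 0.0216 and 0.0334. For Gata2, whose values varied little, they were Cc2d1a, Zfp319 and Psen2, at 0.0097, 0.0174 and 0.0203. Among the members, Gata4 and Gata6 were the nearest pair at 0.336 after the low Gata2 and Gata3 at 0.292, and Gata5 was nearer to Gata6 (0.562) than to Gata4 (0.723).

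**Figure D4:**
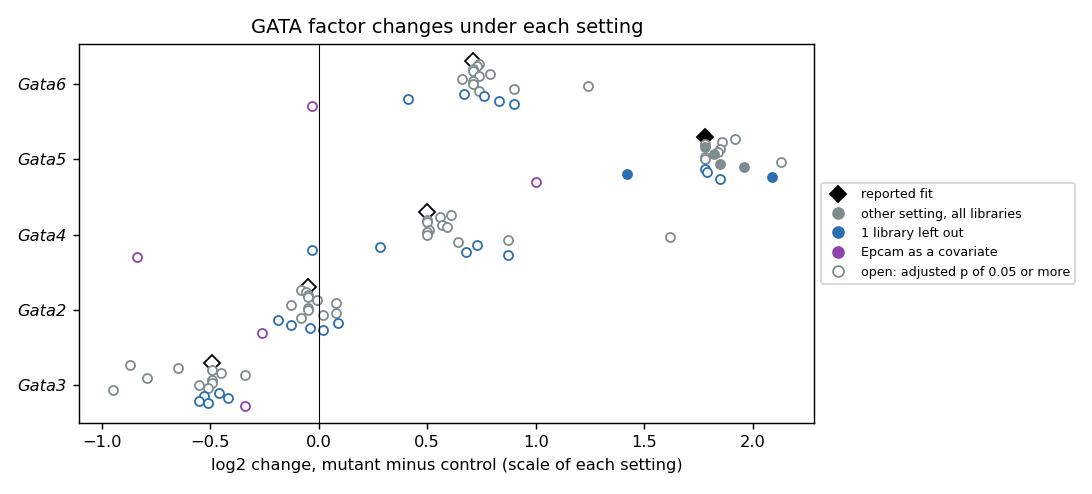
Log2 change (mutant minus control) of each GATA gene under the reported fit (diamond) and 18 alternatives, 17 for Gata3, with filled symbols where the adjusted p was under 0.05. Gata5 stays above 0 at 1.00 to 2.13 and Gata3 below 0, while Gata4 and Gata6 cross 0 with Epcam as a covariate, Gata4 also without control replicate 1, and Gata2 lies around 0.

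Shh, named with Prmt5 in the mutant genotype, measured 2.47 and 3.14 FPKM in mutants, against 10.5, 7.50 and 5.88 FPKM in controls (log2 change -1.21, adjusted p = 0.0416). Why Shh RNA was lower was not tested, and its level does not show that the Shh gene was changed. Since the design text names Shh in the mutant genotype, GATA differences cannot be told apart from any that a changed Shh gene brings. Since 1 was added to each FPKM before the logarithm, log2 changes of low genes such as Gata2 and Gata3 are understated.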

How the data were processed

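The authors deposited 1 table of FPKM values for 19699 gene entries and 5 libraries; the name of the deposited table gives the unit. Per the labels' protocols, libraries were made with a SMARTER kit, and the submitters' processing notes name the build GRCm38 (mm10). Aligner, counter, annotation and strand setting: not given in the sources used here. The labels' treatment protocol describes cultured fat cells and was not used. Reads were recovered from the FPKM steps: exon lengths in GENCODE M21 gave whole reads in all 5 libraries for 73.9% of matched entries (tolerance 1e-06), and for others, Gata6 among them, the smallest length that gave whole reads was taken (3194 bases for Gata6).

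Log2(FPKM + 1) was tested with limma 3.58.1 (R 4.3.3; lmFit, eBayes with trend, two-sided) over all 5 libraries without covariates. The filter kept 12838 genes that reached 1 FPKM in 2 libraries or more, with Benjamini-Hochberg adjustment over these genes and a threshold of 0.05. The steps were run on simulated reads with known changes, as a check of the code. Simulated libraries of a group shared a common mean per gene and had no sex imbalance. That check therefore cannot show how often calls are false in these libraries. With 2 against 3 libraries no exact permutation p can fall below 0.1. Groups and replicate numbers came from genotype labels and titles.

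The members, lists and tests were chosen with earlier results of these data known. Of the 15 lists, 175 of 183 genes were found. Named genes are the members, Prmt5, Shh, the 3 nearest profiles per member (predicted genes, pseudogenes and sex-linked genes left out), and in each list the members past the threshold or else the 3 with the highest mean. Gata5os, Zfpm1, Zfpm2, Nkx2-1, Wnt7b, Tcf21, Col1a1, Foxn1, Aqp5, Trps1, Gatad1, Gatad2a and Gatad2b are named outside this rule, chosen after their values were seen. Some genes that the rule picks are not reported here. Alternatives were other pseudocounts, filters, scalings, variance models, covariates, voom, a replicate block and leaving out each library.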

Additional observations from a re-analysis of the deposited data

How the results depend on the processing

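Gata3 kept its direction in 17 alternatives and stayed short of the threshold in each. The fit with 1 FPKM or more in all 5 libraries gave it no value, since its mutants are under that level. Gata5 kept its direction in 18 alternatives. Its log2 change with pseudocounts of 0.1 and 0.5 was 1.92 and 1.86, with no filter 1.78, with median ratio scaling 1.85, with quantile normalization 1.84, with eBayes without trend or robust 1.78, with Y-linked RNA as a covariate 2.13 and with Epcam as a covariate 1.00, all of them no longer past the threshold (adjusted p = 0.0503 to 0.273). Leaving out 1 library moved it between 1.42 and 2.09. Gata2 turned to 0.08 with quantile normalization, 0.08 with Y-linked RNA and 0.02 with the replicate block, and ranged from -0.19 to 0.09 leaving out 1 library. Gata4 turned to -0.84 and Gata6 to -0.03 with Epcam as a covariate, and leaving out 1 library gave -0.03 to 0.87 for Gata4 and 0.41 to 0.90 for Gata6. The cause of these moves was not tested.

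The count of genes past the threshold, 303, was 69 with no filter, 55 with Y-linked RNA, 20 with Epcam as a covariate and 603 with voom, and 4 to 284 leaving out 1 library, with 4 and 11 without mutant replicates 1 and 2, where the lone mutant is assumed to vary like the controls. Higher and lower calls were 127 and 176, but 148 and 147 with median ratio scaling, 133 and 115 with quantile normalization, and 40 and 29 with no filter. TPM without Gm23935 gave 112 and 277. Over all genes the median change went from -0.06 to -0.13 with it. With the replicate number as a block the count was 259 and Gata5 passed at 1.85 (adjusted p = 0.0416). Deviations of same-numbered libraries correlated over genes at r of -0.07 and 0.02, which gave no sign of pairing by number. With 2 mutants the deviations of one are those of the other with the sign turned. These values thus cannot show that the samples are unpaired. Gata2 and Gata3 rest on 46 to 197 reads a library, which limits their precision.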

Other observations

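Trps1, Gatad1, Gatad2a and Gatad2b, other genes with a GATA-type zinc finger, were looked up after the values of the family were seen, and none of these 4 passed limma's test. Trps1, a repressor known from cartilage and hair, measured 4.26 and 4.02 FPKM in mutants, against 7.86, 5.90 and 6.46 FPKM in controls. Both mutants lay below all controls, with a log2 change of -0.58 (SE 0.14, adjusted p = 0.0821). Gatad1, Gatad2a and Gatad2b, genes of chromatin complexes, were at log2 changes of -0.17, 0.10 and -0.15 and adjusted p-values of 0.516, 0.713 and 0.504.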
